A study of Homo sapiens with 12 samples.

Results

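The genes described here are 10 genes of the basement membrane: LAMA1, LAMA5, LAMB1 and LAMC1, which encode laminin chains, COL4A1 and COL4A2, which encode type IV collagen chains, NID1, HSPG2, AGRN and FRAS1. They were chosen by their differences between the genotypes, because HSPG2, LAMA5 and FRAS1 have some of the largest in this series, a rule that sets no threshold. Levels in the comparisons of genotypes are therefore given as a description, with no test. All 10 were found among 62475 gene identifiers in the deposited table of counts. RNA came from HepG2, a cell line grown from a human liver tumour, in 4 groups of 3 biological replicates. Wild-type cells (WT) and cells labelled HDAC1_S434A, named for a serine-to-alanine substitution in the histone deacetylase HDAC1 (here S434A), each went either untreated or treated with H89, which inhibits the cAMP-dependent kinase PKA. The groups are called untreated WT, H89-treated WT, untreated S434A and H89-treated S434A. For the way the mutant was introduced, the number of clones, and the dose and duration of H89, the sources used here give nothing.

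A basement membrane is a thin sheet of extracellular matrix beneath epithelia and around vessels, muscle and nerve. Laminins, each a trimer of an alpha, a beta and a gamma chain, polymerise on the cell surface, type IV collagen forms a second network, and nidogen and the heparan sulfate proteoglycans perlecan (HSPG2) and agrin (AGRN) join them and bind growth factors. In normal liver the sinusoids lack a continuous basement membrane, whereas bile ducts and vessels have one, and liver tumours often deposit its components.

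Promoter sequences of the 3 genes that chose the set, and of LAMC1, the laminin gamma chain that most laminin trimers share, are shown so that their base composition and motifs can be read beside the changes described further on. They are the 250 bases before the RefSeq start site (GRCh38.p14), written 5′ to 3′ on the strand of the gene, and RefSeq promoters were matched for 8 of the 10 genes (LAMA1 and AGRN were not matched). Capitals mark GC boxes, searched as GGGCGG or CCGCCC, and in LAMA5 also a half-site of the cAMP response element, searched as TGACG or CGTCA. HSPG2 lies at chr1:21937311-21937560 on the minus strand, LAMA5 at chr20:62367313-62367562 on the minus strand, FRAS1 at chr4:78057073-78057322 on the plus strand and LAMC1 at chr1:183023170-183023419 on the plus strand.
HSPG2: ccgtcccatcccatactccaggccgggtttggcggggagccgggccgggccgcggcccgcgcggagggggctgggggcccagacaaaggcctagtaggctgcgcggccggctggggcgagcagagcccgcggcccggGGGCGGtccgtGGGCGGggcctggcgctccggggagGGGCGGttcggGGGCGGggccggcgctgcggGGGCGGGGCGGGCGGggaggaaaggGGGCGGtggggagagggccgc
LAMA5: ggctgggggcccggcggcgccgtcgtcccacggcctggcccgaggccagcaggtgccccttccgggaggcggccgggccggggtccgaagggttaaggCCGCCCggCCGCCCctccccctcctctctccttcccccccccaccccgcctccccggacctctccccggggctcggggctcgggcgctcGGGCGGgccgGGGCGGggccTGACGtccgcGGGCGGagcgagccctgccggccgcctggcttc
FRAS1: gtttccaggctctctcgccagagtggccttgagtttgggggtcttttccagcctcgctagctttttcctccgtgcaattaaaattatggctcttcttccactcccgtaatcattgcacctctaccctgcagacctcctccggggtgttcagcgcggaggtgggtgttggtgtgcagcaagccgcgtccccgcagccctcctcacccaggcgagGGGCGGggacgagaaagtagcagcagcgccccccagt
LAMC1: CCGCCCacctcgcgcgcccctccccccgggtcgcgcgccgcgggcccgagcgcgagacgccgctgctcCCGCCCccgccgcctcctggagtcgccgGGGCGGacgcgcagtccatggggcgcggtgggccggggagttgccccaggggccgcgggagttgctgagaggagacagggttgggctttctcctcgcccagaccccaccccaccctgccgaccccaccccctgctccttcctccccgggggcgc

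A GC box was found in 8 of the 8 promoters matched, beside 42.6% of 35116 RefSeq promoters of the same length. HSPG2 held 8 of them (overlapping matches counted), LAMA5 held 5, LAMC1 held 3 and FRAS1 held 1. The CRE half-site was found in 1 of the 8, that of LAMA5, and in 21.2% of all promoters. A CCAAT box, searched as CCAAT or ATTGG, was found in 3 of the 8 (COL4A1, COL4A2 and NID1) and in 32% of all promoters. The COL4A1 and COL4A2 windows overlap by 126 bases that hold 1 CCAAT box and 1 GC box. Each of these sites is therefore counted for both genes. The HSPG2 and LAMA5 windows were both 82.8% G and C and the FRAS1 window 60.4%, beside a median of 58% over all promoters. These matches describe letters in a window and show nothing of which factors bind there.

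COL4A1 and COL4A2 are transcribed in opposite directions from start sites at chromosome 13 positions 110307157 and 110307284 (GRCh38.p14). The 126 bases between them, chr13:110307158-110307283, are shown on the plus strand, in which COL4A2 is read, because the pair had the lowest counts of the set together with LAMA1. Capitals mark a CCAAT box and a GC box.
COL4A1-COL4A2: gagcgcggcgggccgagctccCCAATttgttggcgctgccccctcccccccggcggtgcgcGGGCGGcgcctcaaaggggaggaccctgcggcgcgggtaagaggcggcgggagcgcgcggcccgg

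Library totals were 37187794, 27763604 and 31976287 counts in untreated WT. In the other groups they ran from 17562754 to 22648485, without overlap with untreated WT. The part of depth in the differences from untreated WT was not tested. HDAC1 itself lay between 552.5 and 752 CPM (counts scaled to library size with TMM factors) in all 12 libraries, and counts per gene do not show the substitution. The 3 libraries of untreated S434A differed most from each other: a chi-square per degree of freedom between pairs of replicates, in which 1 is counting noise, was 32.5 to 156, beside 1.62 to 9.07 in the other groups. Across genes, a library's deviation from the 12-library mean correlated with GC content at Spearman rho 0.81, 0.71 and 0.13 in these 3 libraries and at -0.44 to -0.07 in the other 9. Counts from the mitochondrial chromosome took 3.83 to 3.91% of the total in untreated WT, and 5.73 to 8.82% in the other groups. P-values measure the spread between these samples, and nothing in the counts shows how far the replicates were separate cultures.

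Hepatocyte markers were abundant in every library, with a summed level of 80340 to 80830 CPM in untreated WT, 49130 to 53670 in H89-treated WT, 45240 to 62670 in untreated S434A and 49550 to 50120 in H89-treated S434A. The sums hide moves in both directions. With H89 in WT 2 of these 10 markers rose, APOB from a mean of 1475 to 7076 CPM and HNF4A from 152 to 328, and 5 fell (38.8% and 30.9% over all genes). ALB, the most abundant marker in untreated WT, was at 2923, 17720 and 23150 CPM in untreated S434A. Fibroblast markers summed to 17.98 to 18.66 CPM in untreated WT, 19.8 to 21.0 in H89-treated WT, 24.4 to 39.7 in untreated S434A and 17.8 to 20.5 in H89-treated S434A. Nearly all of that was PDGFRB, the other 9 markers had at most 4 counts in any library, and COL1A2, DCN, THY1 and FAP were at 0. The 9 endothelial markers matched summed to 6.96 to 7.93, 7.26 to 8.09, 11.7 to 18.6 and 6.50 to 8.24 CPM in the same order of groups, with KDR, TEK, ERG and EMCN at 0. The part of these markers in the results given here was not tested.

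**Figure D1:**
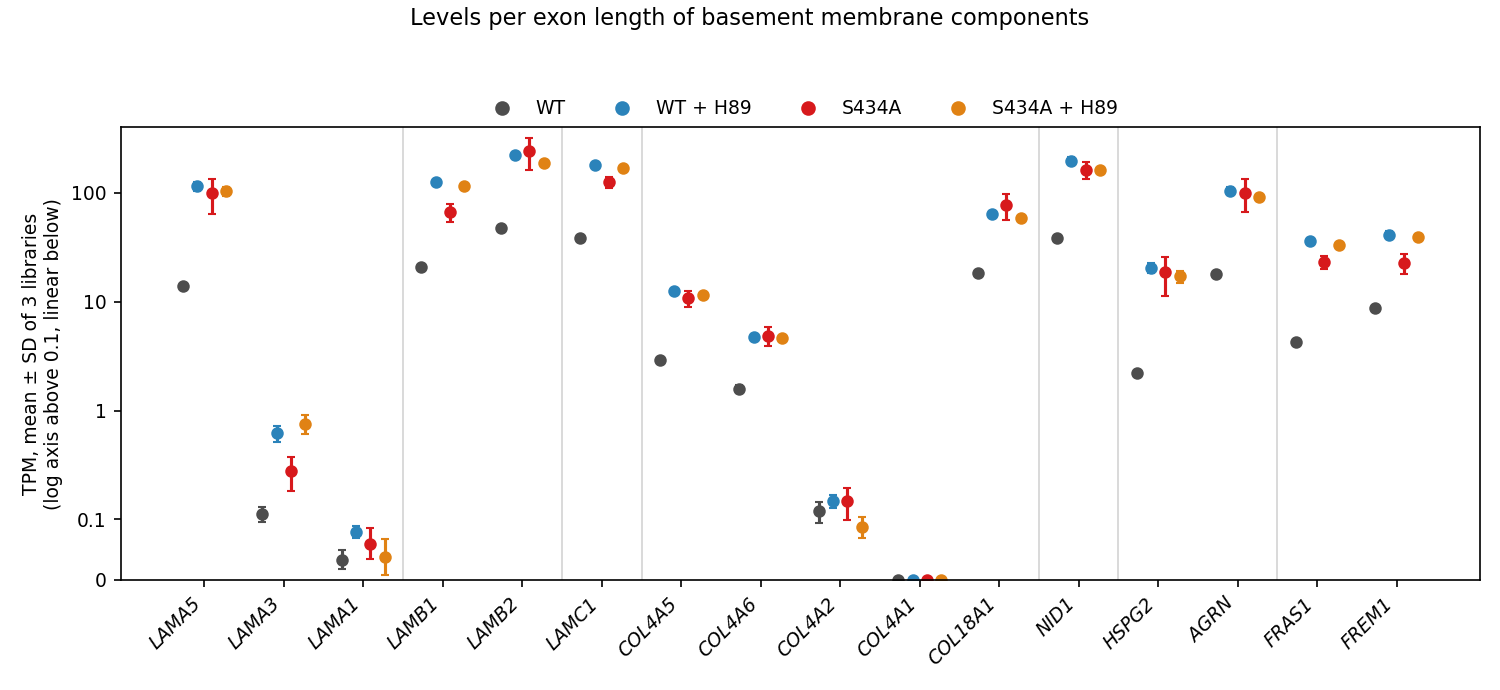
Levels per exon length (TPM, on a scale that is logarithmic above 0.1 and linear below) of the basement membrane genes and of 6 related genes (LAMA3, LAMB2, COL4A5, COL4A6, COL18A1 and FREM1), as mean ± SD of 3 libraries per group. LAMC1, NID1 and LAMB2 stood highest in all 4 groups, and COL4A1 was at 0 in all 4.

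Per exon length and library total (TPM), LAMC1 and NID1 were the most abundant of the 10 in untreated WT, at 38.3 ± 1.16 and 38.7 ± 0.865 TPM (SD, n = 3), levels that did not differ beyond their spread. LAMB1 followed at 20.7 ± 0.692 TPM, then AGRN at 17.9 ± 0.793, LAMA5 at 13.9 ± 0.471, FRAS1 at 4.31 ± 0.0862 and HSPG2 at 2.20 ± 0.0543. These neighbours in the order differed by more than their SD. COL4A2 was at 0.119 ± 0.0250 TPM and LAMA1 at 0.0332 ± 0.0154 TPM. TPM is used here only to compare genes with each other within a group, since it also moves with the mix of long and short transcripts in a library, and all changes between groups are on the CPM scale.

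**Figure D2:**
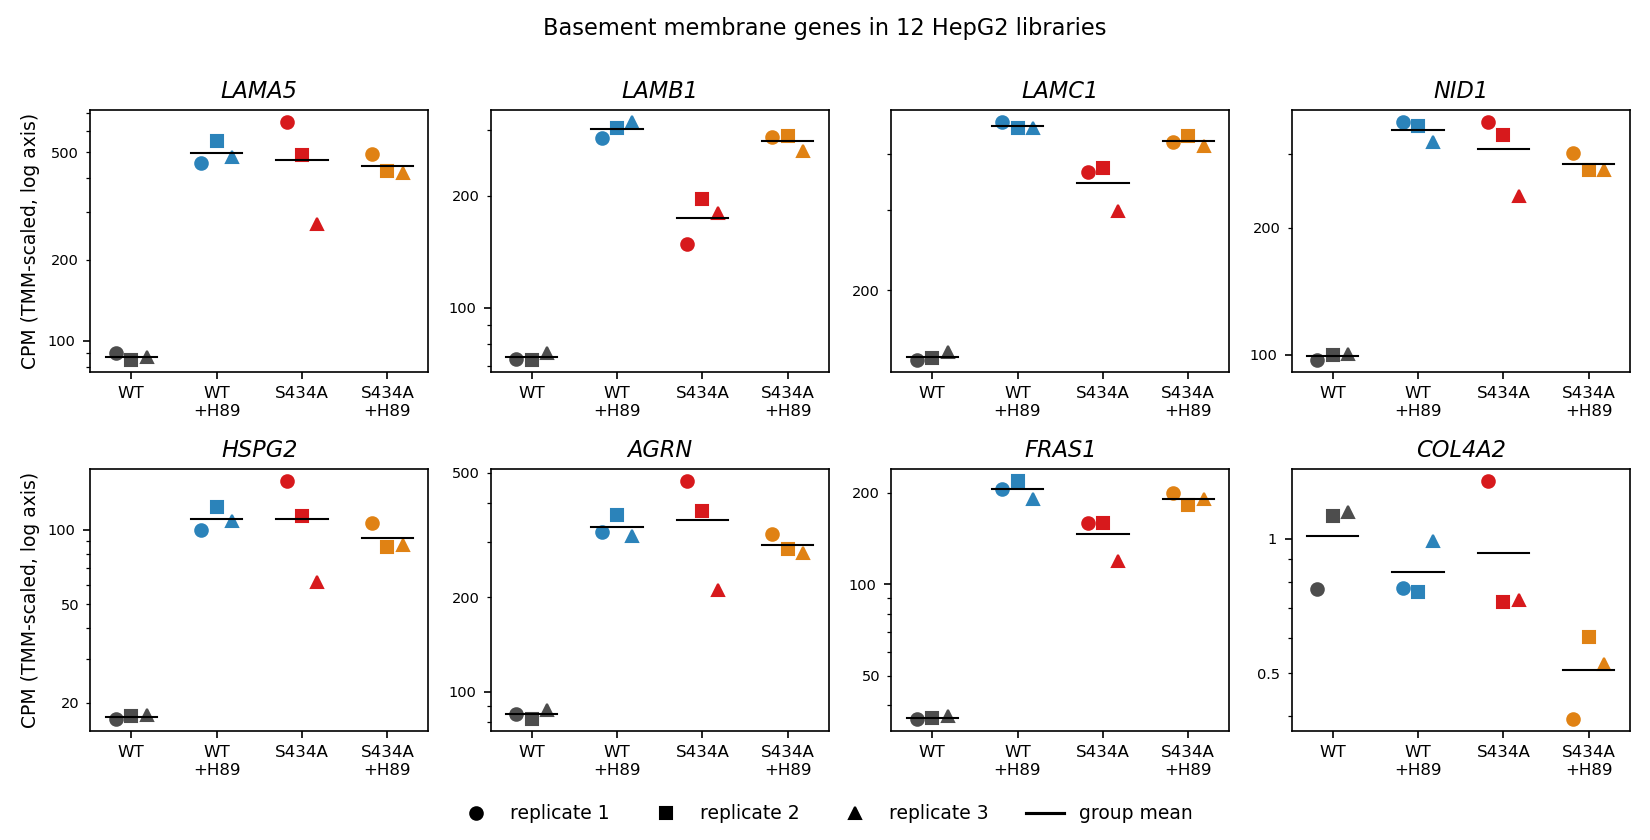
CPM (TMM-scaled, log axis, a separate range in each panel) of the 8 genes tested in each of the 12 libraries, with symbols for replicates and a line for the group mean. In 7 of the 8 panels the WT libraries without H89 lie together at the bottom, and for HSPG2, LAMA5 and AGRN the S434A libraries without H89 are spread widely.

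H89 in WT cells was accompanied by higher mRNA of 3 laminin chains, nidogen, perlecan, agrin and FRAS1. Of the 8 genes that passed the filter on low counts, 7 rose (edgeR quasi-likelihood test, Benjamini-Hochberg adjusted p under 0.05), all by more than 2-fold, and the remaining one, COL4A2, did not pass. Over all 14435 genes tested, 38.8% rose, 22.2% by more than 2-fold, and 30.9% fell. The median log2 fold change of the 8 was 2.01, beside 0.20 over all genes. All 7 had at least 408 counts in every WT library, so none of them passed the filter only through the groups where it was high. For each of the 7 the 3 libraries with H89 lay above the 3 without, as for 47.6% of all genes tested. The 3 WT libraries also enter the comparison of genotypes that the choice of genes used. In bulk RNA, fewer cells of a type and less RNA per cell cannot be told apart.

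The alpha 5, beta 1 and gamma 1 chains form a laminin trimer that is widespread in adult basement membranes. LAMA5 (ENSG00000130702.15_6, hg19 chromosome 20, 60883011 to 60942368, minus strand), the alpha 5 chain, was at 89.9, 85.0 and 87.1 CPM in untreated WT and at 456, 552 and 478 CPM in H89-treated WT. In S434A it was at 646, 487 and 271 CPM without H89 and at 493, 426 and 419 CPM with H89. The WT libraries without H89 lay far below all others, while the other groups overlapped, and untreated S434A held both the highest and the lowest of those 9 values. The rise with H89 in WT was 2.504 on the log2 scale (SE 0.25, adjusted p = 6.85e-06). Its exons overlap those of ADRM1 and LAMA5-AS1 on the opposite strand over 2.54% of their length, and the file header sets no strand option, so reads in such stretches cannot be told apart.

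LAMB1 (ENSG00000091136.14_7, hg19 chromosome 7, 107564244 to 107643632, minus strand), the beta 1 chain, was at 73.1, 72.6 and 75.8 CPM in untreated WT and at 286, 304.5 and 315 CPM in H89-treated WT. Levels of LAMB1 in S434A were 148, 196 and 179.6 CPM without H89 and 288, 289 and 264 CPM with H89. Untreated S434A therefore lay between the other groups, without overlap with any of them. The rise with H89 in WT was 2.03 (SE 0.09, adjusted p = 1.58e-08). LAMB1 shares 70 exonic bases with DLD on the opposite strand, a gene with 139, 477 and 774 counts in untreated S434A and 1069 to 1664 in the other groups.

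LAMC1 (ENSG00000135862.6_5, hg19 chromosome 1, 182992555 to 183114727, plus strand), the gamma 1 chain, was at 140.4, 142 and 146 CPM in untreated WT and at 469.6, 456 and 456 CPM in H89-treated WT. Without H89 the S434A libraries were at 365, 372 and 299.5 CPM, and with H89 at 424, 437 and 417 CPM. The 4 groups did not overlap, in the order untreated WT, untreated S434A, H89-treated S434A and H89-treated WT. The rise with H89 in WT was 1.69 (SE 0.08, adjusted p = 1.33e-08). LAMA1, the alpha 1 chain typical of the embryo, had 1 to 10 counts per library and was not tested.

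NID1 (ENSG00000116962.15_6, hg19 chromosome 1, 236139130 to 236228409, minus strand) encodes nidogen 1, which links the laminin network to type IV collagen. It was at 97.2, 99.9 and 100.6 CPM in untreated WT and at 356.5, 349.5 and 319.8 CPM in H89-treated WT. S434A held 356, 332 and 238 CPM without H89 and 300.4, 275 and 275 CPM with H89. Untreated WT lay below all other libraries, H89-treated S434A lay below H89-treated WT, and untreated S434A overlapped with both groups given H89. The rise with H89 in WT was 1.78 (SE 0.13, adjusted p = 3.33e-07).

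HSPG2 (ENSG00000142798.20_10, hg19 chromosome 1, 22148737 to 22263803, minus strand), perlecan, was at 17.2, 17.7 and 17.9 CPM in untreated WT and at 100.3, 123.5 and 109 CPM in H89-treated WT. Perlecan mRNA in S434A was at 157, 114 and 61.6 CPM without H89 and at 107, 85.0 and 87.1 CPM with H89. The S434A libraries without H89 spanned the range of both groups with H89. Its rise with H89 in WT was 2.66 (SE 0.28, adjusted p = 9.15e-06), larger than the others as counted, but within 1 SE of LAMA5 and FRAS1. Exons of HSPG2 overlap LDLRAD2, on the opposite strand, over 11.7% of their length, and LDLRAD2 had at most 1 count in any library.

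AGRN (ENSG00000188157.15_7, hg19 chromosome 1, 955500 to 991498, plus strand) encodes agrin, which organises the neuromuscular synapse through LRP4 and binds laminin and dystroglycan elsewhere. WT cells held 85.2, 81.9 and 87.7 CPM without H89 and 325, 367 and 314 CPM with H89. S434A cells held 470.0, 378 and 212 CPM without H89 and 319, 286 and 278 CPM with H89. As for HSPG2 and LAMA5, replicate 1 of untreated S434A was the highest of all 12 libraries and replicate 3 the lowest outside untreated WT. The rise with H89 in WT was 1.98 (SE 0.23, adjusted p = 1.92e-05).

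FRAS1 (ENSG00000138759.19_6, hg19 chromosome 4, 78978477 to 79465423, plus strand) encodes a large protein that anchors embryonic epithelial basement membranes to the dermis. It was at 36.1, 36.4 and 36.95 CPM in untreated WT and at 206.5, 218 and 191 CPM in H89-treated WT. Untreated S434A gave 159, 159 and 119.7 CPM and H89-treated S434A gave 199, 183 and 191 CPM. Untreated S434A lay below both groups with H89 and above untreated WT in every library. The rise with H89 in WT was 2.49 (SE 0.11, adjusted p = 9.82e-09).

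The classical pair of type IV collagen chains, COL4A1 and COL4A2, was at or near 0. COL4A1 (ENSG00000187498.16_8, hg19 chromosome 13, 110801310 to 110959504, minus strand), the alpha 1 chain, had 0 counts in all 12 libraries, which allows a level of up to 0.0964 to 0.166 CPM (3 counts per library, counting error only). Whether the annotation or the counting contributes to this 0 was not tested. COL4A2 (ENSG00000134871.19_9, hg19 chromosome 13, 110958159 to 111165556, plus strand), the alpha 2 chain, was at 0.771, 1.13 and 1.15 CPM in untreated WT and at 0.777, 0.760 and 0.990 CPM in H89-treated WT. In S434A the values were 1.345, 0.720 and 0.727 CPM without H89 and 0.395, 0.604 and 0.524 CPM with H89. These are 9 to 31 counts per library, and the groups overlapped except that H89-treated S434A lay below the others. The change with H89 in WT was -0.26 (SE 0.27, adjusted p = 0.410).

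Other chains of type IV collagen were present in the same libraries. COL4A5, the alpha 5 chain of a trimer found in several epithelial basement membranes, was at 2.90 TPM in untreated WT, 12.5 in H89-treated WT, 10.8 in untreated S434A and 11.6 in H89-treated S434A. COL4A6, the alpha 6 chain, which was chosen after its values were seen, was at 1.57, 4.76, 4.89 and 4.59 TPM in the same order. COL4A5 rose by 1.55 (SE 0.11, adjusted p = 3.12e-07) and COL4A6 by 1.04 (SE 0.16, adjusted p = 0.000174) with H89 in WT. After correction for GC content and exon length these rises were 0.82 and 0.42.

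**Figure D3:**
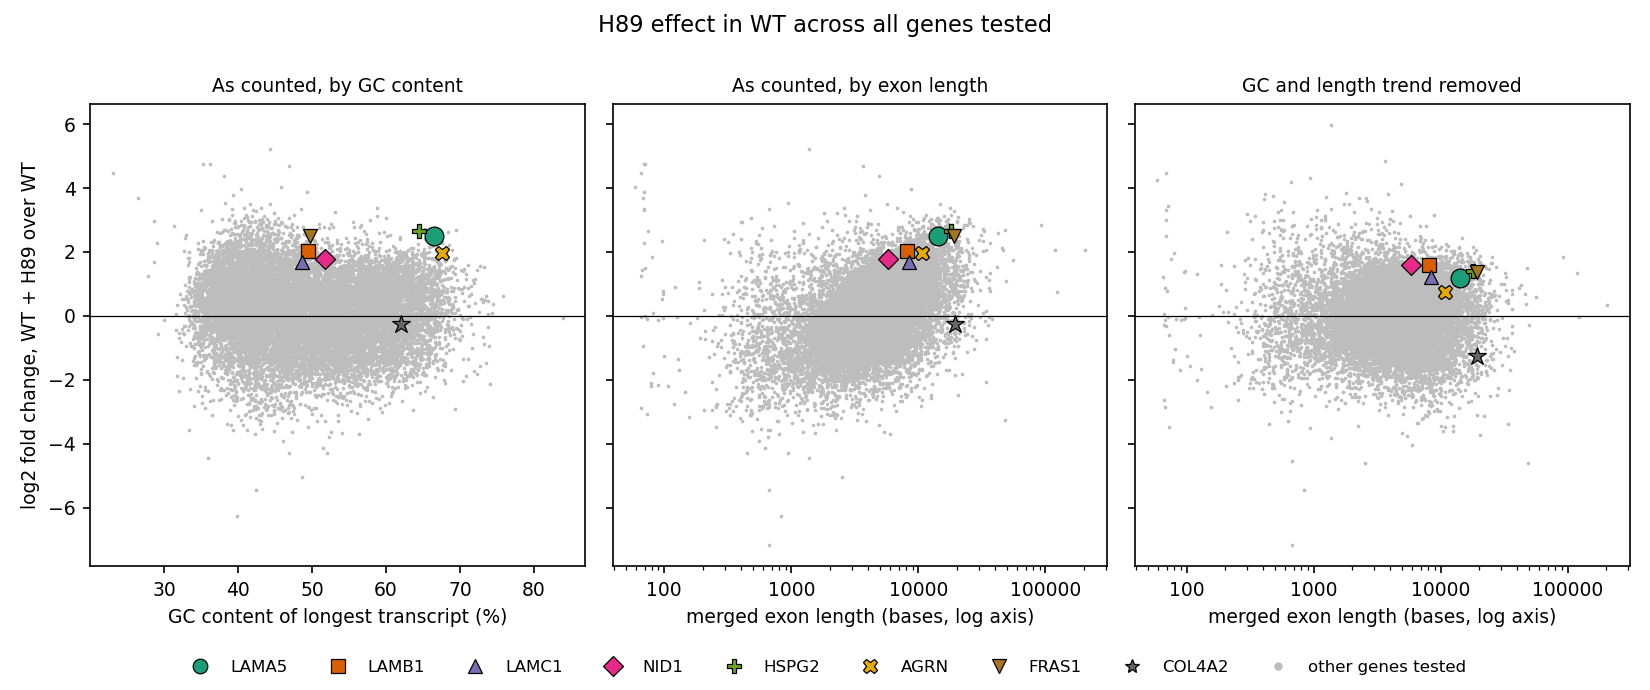
Log2 fold change with H89 in WT of all genes tested (grey) and of the 8 basement membrane genes (symbols), against GC content, against exon length (log axis), and against exon length after the trends were removed. Long genes were higher with H89, and the 7 genes that rose lie above 0 in all 3 panels, FRAS1 moving from 2.49 to 1.37 and COL4A2 from -0.26 to -1.26.

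The basement membrane genes are long and, in part, rich in G and C, and both properties went with the fold changes across all genes. Exon lengths of the 10 ran from 5811 bases (NID1) to 19271 (COL4A2), beside a median of 4734 over all genes tested. GC content of the longest transcript was 64.5% for HSPG2, 66.4% for LAMA5, 67.5% for AGRN and 62.0% for COL4A2, beside a median of 49.0%, and 48.7 to 51.7% for LAMC1, LAMB1, FRAS1 and NID1. Across genes, which are not independent replicates, the change with H89 in WT had Spearman rho 0.46 with exon length and -0.08 with GC content. When each library's trend on both was removed, the same 7 genes rose, 6 of them by more than 2-fold. In that fit 38.3% of all genes rose, 13.6% by more than 2-fold, and 34.8% fell. The values were then 1.61 for NID1, 1.60 for LAMB1, 1.41 for HSPG2, 1.37 for FRAS1, 1.22 for LAMC1, 1.18 for LAMA5 and 0.74 for AGRN. COL4A2 was then at -1.26 and fell (adjusted p = 0.000348). The median of the 8 was 1.29, beside 0.05 over all genes. How much of the trend is technical was not tested.

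**Figure D4:**
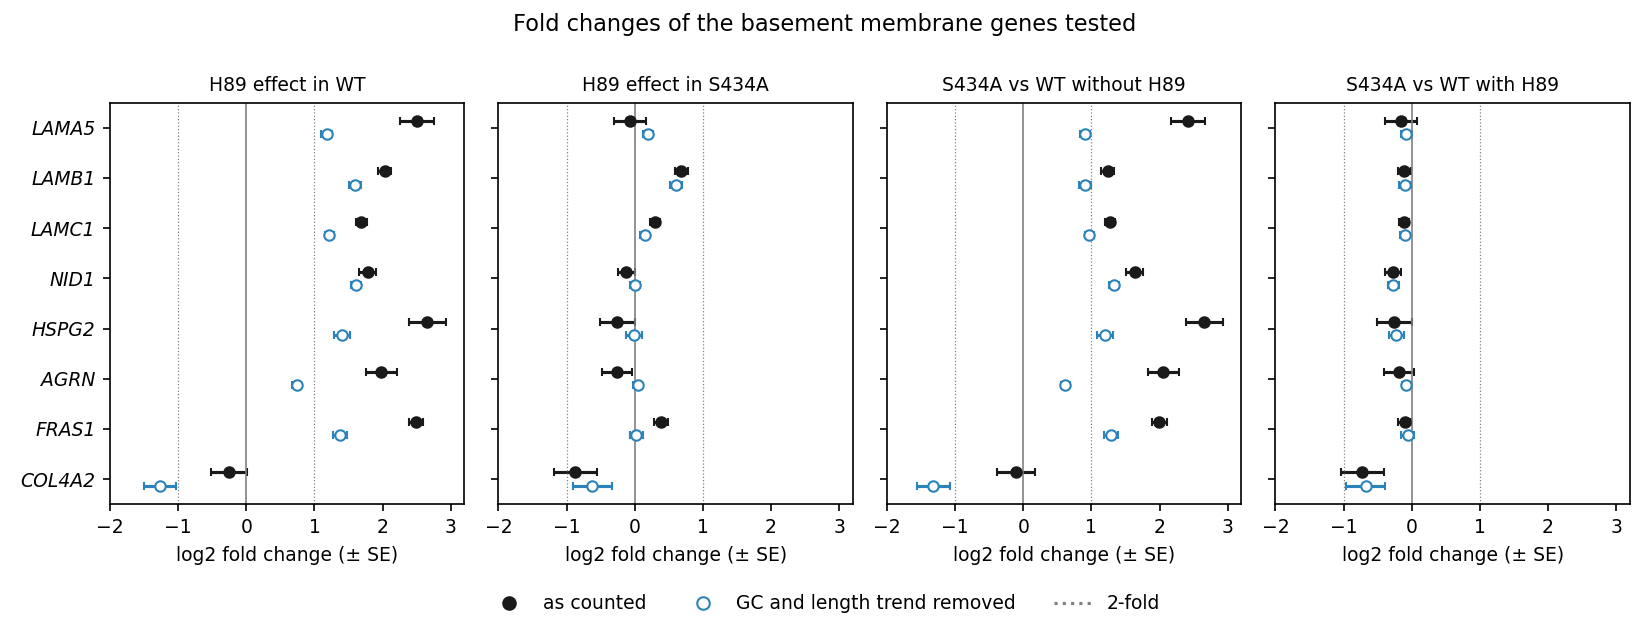
Log2 fold changes ± SE of the 8 genes in 4 comparisons, as counted (filled) and with the GC and length trend removed (open), with dotted lines at 2-fold. The changes with H89 in WT and the differences between genotypes without H89 lie to the right of 0 for 7 genes, whereas with H89 in S434A and between genotypes with H89 all 8 lie between -0.87 and 0.69.

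H89 in S434A cells was accompanied by a rise of LAMB1, while calls for the other genes of the set changed with the setting or the libraries used. By the same test 3 of the 8 genes rose and 1 fell, none by 2-fold, and 4 did not pass. Over all genes 29.3% rose, 15.2% by more than 2-fold, and 22.7% fell. The split depends on scaling, with 4224 genes higher and 3280 lower with TMM factors and 3566 higher and 4273 lower with RLE factors. The median of the 8 was -0.10, beside 0.01 over all genes. The S434A libraries without H89 also enter the comparison of genotypes used in the choice.

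Of the laminin chains, LAMB1 rose by 0.69 (SE 0.09, adjusted p = 0.000291). It kept a rise of 0.54 to 0.71 over all alternatives run, with adjusted p from 6.92e-07 to 0.0212. LAMC1 rose by 0.30 (SE 0.07, adjusted p = 0.00780) and FRAS1 by 0.39 (SE 0.10, adjusted p = 0.00978). Both calls were lost on leaving out any 1 of the 3 libraries of H89-treated S434A or any 1 of the 3 of H89-treated WT, at 0.16 to 0.19 for LAMC1 and 0.23 to 0.29 for FRAS1. In those fits the median over all genes also moved, from 0.01 to between -0.12 and -0.11. H89-treated WT is not part of this contrast and enters it only through the scaling, the filter and the shared estimate of spread. With the GC and length trend removed LAMC1 was at 0.14 (adjusted p = 0.0994) and FRAS1 at 0.022 (adjusted p = 0.874). COL4A2 fell by 0.87 (SE 0.32, adjusted p = 0.0396) at under 2 CPM, and did not pass without replicate 1 of S434A (-0.51), without replicate 1 or 3 of H89-treated S434A (-0.85 and -1.02) or without replicate 2 of WT (-0.87).

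HSPG2, LAMA5, AGRN and NID1 did not pass with H89 in S434A. Their log2 fold changes were -0.26 (SE 0.26, adjusted p = 0.423), -0.07 (SE 0.24, adjusted p = 0.821), -0.26 (SE 0.22, adjusted p = 0.331) and -0.12 (SE 0.12, adjusted p = 0.412). A p that misses the threshold does not show that their levels were alike. The outcome turned on replicate 3 of untreated S434A: without it HSPG2, LAMA5, AGRN and NID1 fell by 0.55, 0.35, 0.53 and 0.28 (adjusted p = 0.00743, 0.0304, 0.00109 and 0.00235). Without replicate 1 of the same group HSPG2 was at 0.080 and LAMA5 at 0.23, neither passing. HSPG2, LAMA5 and AGRN have the highest GC content of the 8. In untreated S434A their 3 libraries stood in the same order as the GC trends given above. NID1 had that order over a smaller range, as did FRAS1, with 49.7% GC, at 159.1, 158.9 and 119.7 CPM. LAMC1, with 48.7% GC, was also lowest in replicate 3 but highest in replicate 2 (365, 372 and 299.5 CPM). LAMB1, with 49.5% GC, was lowest in replicate 1. The part of GC content in these orders was not tested. With the GC and length trend removed, HSPG2, LAMA5, AGRN and NID1 were at -0.012, 0.20, 0.043 and 0.0081 and did not pass (20.8% of all genes then rose and 23.3% fell).

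Between the genotypes without H89, HSPG2, LAMA5 and FRAS1 differed by 2.66 (SE 0.28), 2.42 (SE 0.25) and 2.00 (SE 0.11) on the log2 scale, with S434A higher, and these values are a description because they chose the set. AGRN, NID1, LAMC1 and LAMB1 were at 2.06 (SE 0.23), 1.64 (SE 0.13), 1.28 (SE 0.08) and 1.24 (SE 0.09), and COL4A2 was at -0.11 (SE 0.27). All genes had a median of -0.04, and 11.6% of them were called more than 2-fold higher in S434A. With the GC and length trend removed, NID1 was at 1.33, FRAS1 at 1.29, HSPG2 at 1.20, LAMC1 at 0.97, LAMA5 and LAMB1 at 0.90, AGRN at 0.62 and COL4A2 at -1.32. The order therefore differed between the settings: HSPG2 and LAMA5 led as counted, and NID1 and FRAS1 once the trends were removed. With the trends removed the SEs of NID1, FRAS1 and HSPG2 were 0.08, 0.10 and 0.12, so the order among these 3 is not settled. As counted but without replicate 1 of untreated S434A, HSPG2 was at 2.32 and LAMA5 at 2.12, and without replicate 3 they were at 2.95 and 2.70.

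With H89 in both genotypes the 8 genes were lower in S434A by small amounts, from -0.72 (SE 0.31) for COL4A2 and -0.27 (SE 0.12) for NID1 to -0.11 for LAMB1, LAMC1 and FRAS1. The median was -0.17, beside 0.01 over all genes. In this comparison edgeR called 0% of the 14435 genes, with 589 at an unadjusted p under 0.05, and DESeq2 called 2. The difference of the H89 effects between the genotypes (S434A minus WT) was -2.91 (SE 0.37) for HSPG2, -2.57 (SE 0.34) for LAMA5, -2.24 (SE 0.31) for AGRN and -2.10 (SE 0.14) for FRAS1. NID1, LAMC1, LAMB1 and COL4A2 were at -1.91, -1.39, -1.35 and -0.62. These differences hold the same libraries as the comparison of genotypes and are given without a test.

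**Figure D5:**
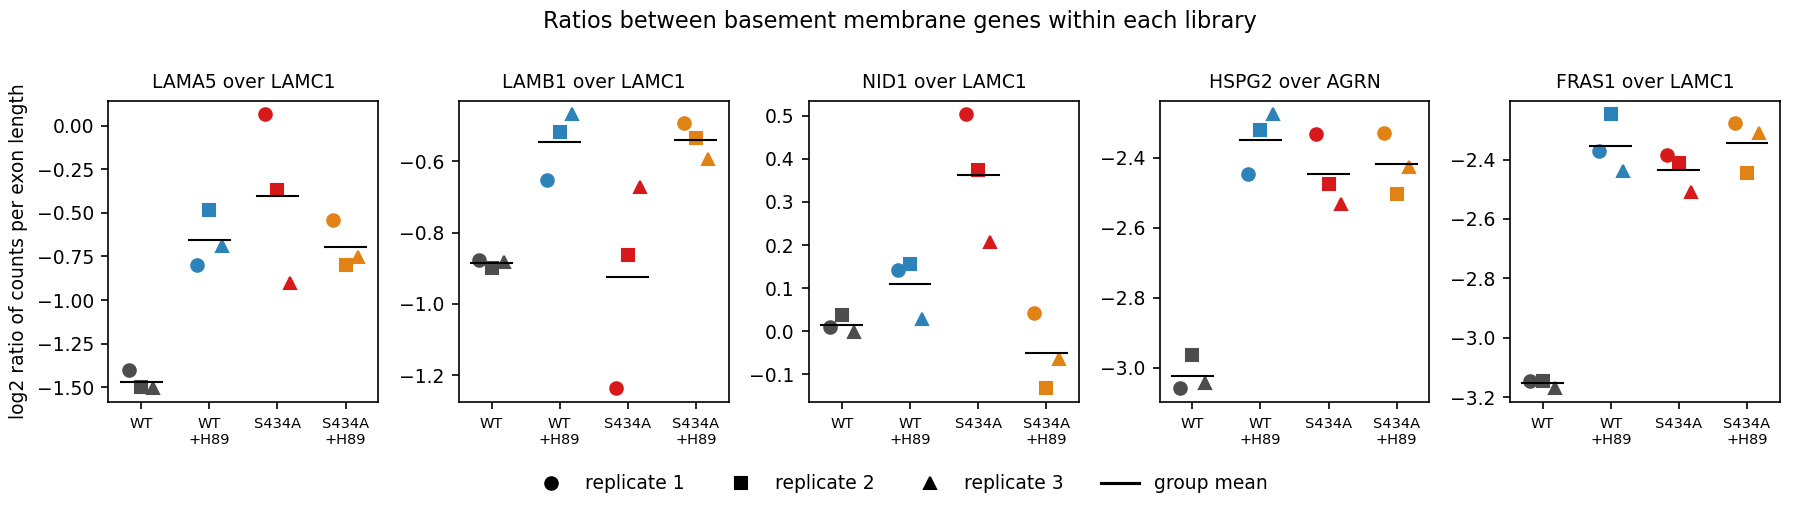
Log2 ratios of counts per exon length between basement membrane genes within each library, with symbols for replicates and a line for the group mean. LAMA5 over LAMC1 is lowest in untreated WT and runs from -0.90 to 0.07 across the 3 libraries of untreated S434A.

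Ratios within a library do not depend on scaling between libraries, but they keep the trends on GC content and exon length. As counted, the genes did not move by equal amounts. With the trends removed, LAMA5 and LAMC1 rose alike with H89 in WT, by 1.18 (SE 0.08) and 1.22 (SE 0.07). LAMB1 and NID1 then rose more than LAMC1, by 1.60 (SE 0.09) and 1.61 (SE 0.08). HSPG2, at 1.41 (SE 0.12), then rose more than AGRN, at 0.74 (SE 0.07). The ratios below are as counted. Per exon length, LAMA5 over LAMC1 was -1.47 ± 0.06 on the log2 scale in untreated WT and -0.66 ± 0.16 in H89-treated WT (SD, n = 3). In untreated S434A this ratio was 0.07, -0.37 and -0.90 in the 3 replicates, the same order as their GC trends given above. In H89-treated S434A it was -0.70 ± 0.14. LAMB1 over LAMC1 was -0.89 ± 0.01 and -0.92 ± 0.29 without H89 in WT and S434A, and -0.55 ± 0.10 and -0.54 ± 0.05 with H89. HSPG2 over AGRN, the 2 proteoglycans, went from -3.02 ± 0.05 in untreated WT to -2.35 ± 0.09, -2.45 ± 0.10 and -2.42 ± 0.09 in H89-treated WT, untreated S434A and H89-treated S434A. FRAS1 over LAMC1 likewise was -3.15 ± 0.02 in untreated WT and -2.44 to -2.35 on average in the other groups. NID1 over LAMC1 was 0.02 ± 0.02 in untreated WT, 0.11 ± 0.07 in H89-treated WT and -0.05 ± 0.09 in H89-treated S434A, and was highest in untreated S434A at 0.36 ± 0.15.

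Among 33 other basement membrane components, 15 were tested, and with H89 in WT 11 of them rose and 2 fell, with a median log2 fold change of 1.07 (38.8% and 30.9% over all genes). LAMB2, the laminin beta 2 chain, rose from 144 ± 2.00 to 455 ± 28.9 CPM (1.66, SE 0.22, adjusted p = 5.00e-05). FREM1, a partner of FRAS1, rose by 1.66 (SE 0.11), LAMA3, the alpha 3 chain, by 1.88 from 0.731 CPM, and the netrin NTN4, which binds laminin gamma chains, by 1.07. TINAGL1, a tubulointerstitial nephritis antigen-like protein, fell by 0.48 (SE 0.07). TINAG, the other gene that fell, had 25, 19 and 19 counts in untreated WT and 4, 1 and 2 in H89-treated WT. It passed the filter on low counts only through untreated WT, where it was high. LAMC3, among those that rose, had 13, 6 and 20 counts in untreated WT and passed through groups where it was higher. With H89 in S434A 3 of the 15 rose (LAMA3 by 1.34, NTN4 by 0.92 and FREM1 by 0.69) and 5 fell, among them TINAGL1 by 0.43. Over all genes 29.3% rose and 22.7% fell in that comparison. With the trends removed, 7 rose and 2 fell in WT with a median of 0.42 (38.3% and 34.8% over all genes). LAMB2, FREM1 and LAMA3 then rose by 1.01, 0.85 and 0.99. In S434A FREM1 was then at -0.043 and TINAGL1 at -0.147, and neither passed.

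Receptors for the basement membrane were tested for 17 of 20 genes, and with H89 in WT 13 rose and 3 fell, with a median of 1.28 (38.8% and 30.9% over all genes). With the trends removed 11 rose and 2 fell (38.3% and 34.8% over all genes), and the median was 0.41. DAG1, dystroglycan, which binds laminin, agrin and perlecan, rose from 81.5 ± 1.90 to 256 ± 18.5 CPM (1.65, SE 0.14, adjusted p = 1.12e-06). GPC1, a glypican, rose by 1.81, the receptor phosphatase PTPRF by 1.55 and the agrin receptor LRP4 by 1.37. The tetraspanin CD151, a partner of laminin-binding integrins, fell by 0.51 and the syndecan SDC4 by 0.34. With H89 in S434A 5 rose and 4 fell, shares close to the 29.3% and 22.7% over all genes. CD151 and SDC4 fell by 0.65 and 0.60 (adjusted p = 0.000222 and 0.000330) and GPC1 rose by 0.44 (adjusted p = 0.0483). DAG1, LRP4 and PTPRF were at 0.27, -0.0037 and -0.18 without passing, and DAG1 passed at 0.48 with the trends removed. In WT with the trends removed GPC1, PTPRF and LRP4 rose by 0.84, 0.68 and 0.78, and SDC4 was at 0.12 and did not pass.

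Enzymes and chaperones that assemble type IV collagen and heparan sulfate were tested for 21 of 23 genes, and with H89 in WT 15 rose and 0 fell, with a median of 0.59, as counted (38.8% and 30.9% over all genes). With the trends removed 10 rose and 5 fell, with a median of 0.13 (38.3% and 34.8% over all genes). NDST1, which sulfates heparan chains, rose from 46.5 ± 1.498 to 107 ± 3.34 CPM (1.20, SE 0.13, adjusted p = 1.06e-05). The collagen lysyl hydroxylase PLOD3 rose by 1.24, and the heparan sulfate chain enzymes EXTL3 and EXT1 by 0.88 and 0.75, which with the trends removed were at 0.02 and 0.13 and did not pass. With H89 in S434A 4 rose and 7 fell (29.3% and 22.7% over all genes). LOXL2, which crosslinks type IV collagen, fell from 4.25, 3.55 and 2.08 CPM to 1.096, 0.882 and 0.847 CPM (-1.80, SE 0.29, adjusted p = 0.000861), and P4HB, a subunit of prolyl 4-hydroxylase, fell by 0.55.

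Proteases and inhibitors of the basement membrane were tested for 11 of 16 genes, with 5 rising and 2 falling with H89 in WT and a median of 0.185 (38.8% and 30.9% over all genes). MMP2, among the 5, had 1, 8 and 3 counts in untreated WT and 16, 16 and 21 in H89-treated WT. It passed the filter on low counts only through groups where it was higher, which limits what its rise shows. The membrane protease gene MMP15 rose by 1.36 (SE 0.17, adjusted p = 3.06e-05) and the inhibitor TIMP2 by 0.96, while the lysosomal cathepsins CTSL and CTSB fell by 0.71 and 0.65. CTSL was at -0.04 with the trends removed and did not pass. With H89 in S434A 0 rose and 5 fell, among them MMP14 by 0.81, CTSB by 0.60 and TIMP1 by 0.44, beside 29.3% and 22.7% over all genes. With the trends removed TIMP1 was at -0.025 and did not pass, and 1 gene of the list rose and 4 fell (20.8% and 23.3% over all genes).

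Over the 12 libraries, which fall into 4 groups and carry the trends given above, the genes whose log2 CPM followed HSPG2 most closely were TBC1D13, CELSR2 and LAMA5, with Pearson r 0.9982, 0.9981 and 0.9979. Those closest to FRAS1 were DYNC1H1, TRRAP and ARID1A, at 0.9988, 0.9985 and 0.9979. TBC1D13 and CELSR2 have 57.9 and 60.3% GC, and the exons of the 3 neighbours of FRAS1 add up to 15939 to 36789 bases, so these genes share with HSPG2 and FRAS1 a GC content or a length above the median.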

How the data were processed

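Total RNA of 12 HepG2 libraries was sequenced, and the deposited table holds raw counts per gene. The authors counted read pairs over exons of an hg19 annotation with featureCounts 2.0.1, per the file headers, which show no option for strand. Bowtie 0.12.2 and build hg19 are named in the submitters' processing notes. Library kit and trimming are not stated in the labels.

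A single model over the 12 libraries was fitted with edgeR 4.0.16 in R 4.3.3. It used TMM scaling, filterByExpr at a minimum count of 10 and robust quasi-likelihood tests. The Benjamini-Hochberg adjustment covered all 14435 genes tested. "Rose" and "fell" stand for adjusted p below 0.05, whatever the fold, and changes over 2-fold, the threshold of the series, were counted separately. The SE is the log2 fold change divided by the square root of F. TPM used the merged exon length of the deposited table. Symbols were matched through identifiers for 58633 of 62475 rows. GC content is that of the longest GENCODE transcript (14279 of the genes tested). Trends of each library on GC and exon length were removed with spline offsets (5 degrees of freedom each, and their product).

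The 10 genes and all gene lists were chosen with earlier results of these data known. All 10 were named, with up to 4 genes of each list by the smallest p for H89 in WT and 2 more for H89 in S434A, and 3 neighbours each of HSPG2 and FRAS1. Alternatives tried were RLE scaling, upper-quartile scaling, DESeq2 1.42.0, 2 other filters, a fit of the compared groups alone, a replicate block, removal of the trends without and with that block, and each library left out. The steps were checked on simulated data.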

Additional observations from a re-analysis of the deposited data

How the results depend on the processing

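With H89 in WT, 7 members rose under every alternative run, and COL4A2 fell only with the GC and length trend removed (1 member lower, without or with the replicate block). With H89 in S434A, 1 member was higher, in place of 3, with upper-quartile factors, without a filter, with only the groups compared and with the trend removed. There 0 members were lower, in place of 1, with at least 1 CPM in 3 libraries (COL4A2 was not tested), with the replicate block, with only the groups compared, and with the trend removed, without or with the block. With the trend removed LAMA5, NID1 and AGRN were at 0.20, 0.0081 and 0.0426 for H89 in S434A, and with the block as well at 0.20, 0.0120 and 0.0442, of which only LAMA5 passed (adjusted p = 0.0491). The cause was not tested.

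With the trend removed, the median log2 difference of the members for S434A over WT without H89 went to 0.94 (0.93 with the block), from 1.82, S434A over WT with H89 to -0.10 (-0.0987), and the difference of H89 effects to -1.04 (-1.03). The first was 2.00 with at least 1 CPM in 3 libraries and 2.03 with only the groups compared, for which the last could not differ from its reported value.

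Leaving out each library in turn gave 1 to 3 members higher and 0 to 5 lower with H89 in S434A. HSPG2 ran from -0.55 to 0.0796 and LAMA5 from -0.35 to 0.23, in both cases without replicate 3 and without replicate 1 of untreated S434A. The medians ran from 1.66 to 1.96 for S434A over WT without H89, from -0.24 to -0.12 with H89, and from -2.15 to -1.89 for the difference of H89 effects.

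Whether replicate numbers pair the samples could not be settled, and the main fit did not pair them. Same-numbered libraries correlated at -0.153 to 0.309 after removal of the group means, with no comparison above 0.1 in all 3 pairs. For H89 in S434A, replicate 1 gave 0.309, beside at most -0.186 with other numbers. The GC trends of untreated S434A enter these correlations and could hide a pairing. The replicate block left 5586 genes higher and 4448 lower with H89 in WT and 4358 and 3212 in S434A. With it COL4A2 was at -0.88 (adjusted p = 0.0621) for H89 in S434A, and no other call of the 8 genes changed. RLE factors moved the median over all genes with H89 in WT from 0.20 to 0.05. Counts of 9 to 31 per library limit what can be said of COL4A2, and 1 to 10 that of LAMA1.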
